A study of Mus musculus with 8 samples.

Results

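The Klf, Sp and Egr genes are transcription factors that share a set of C2H2 zinc fingers at the end of the protein. The 30 genes described here were taken by their names in the GENCODE annotation of the mouse genome (mm10), out of 21851 protein-coding genes. They comprise 16 Klf genes, 9 Sp genes and the 5 genes Egr1, Egr2, Egr3, Egr4 and Wt1. For each gene, the regions enriched for H3K27-me3 in mouse liver were examined over its start sites, within 1 kb and 15 kb of them, and over its body. The rule that names them uses no measured value, but the set was chosen with earlier results of these data known.

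The livers came from male C57BL/6 mice whose JMJD3 gene was floxed in both groups. JMJD3, also named Kdm6b, is a demethylase that erases H3K27-me3. At the age of 8 weeks, mice received AAV-TBG-Cre, whose TBG promoter is active in hepatocytes and drives Cre there. Controls received AAV-GFP, and 12 weeks later both groups were fasted for 16 h. The labels call the AAV-Cre group JMJD3-floxed and the AAV-GFP group JMJD3-control. Of 8 libraries, each virus had 2 for H3K27-me3 and 2 for input, and 1 list of enriched regions was deposited per virus, pooled by the authors from 2 mice. The lists hold no value per mouse and do not measure how far Kdm6b was deleted, so no spread between mice can be given and no test between the groups was made. The labels give the tissue as primary liver cells, whereas the protocol starts from minced tissue, so the material is taken here to be whole liver. Its cells other than hepatocytes are not targeted by the TBG promoter.

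The AAV-Cre list held 59267 regions covering 73.7 Mb, with a median width of 753 bp and a smallest width of 300 bp. The AAV-GFP list held 34586 regions covering 14.9 Mb, with a median width of 231 bp and a smallest of 120 bp. A q-value of 0.05 or lower was reached by 88.6% of the AAV-Cre and 46.8% of the AAV-GFP regions. The depth behind the lists is unknown, and a difference between the livers and a difference in how the peaks were called cannot be told apart. A longer or more complete AAV-Cre call at a gene is therefore given below beside the same quantity over all genes.

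The zinc fingers of Klf and Sp proteins bind GC-rich DNA, the GC box and the CACCC box, and those of the Egr proteins and Wt1 bind a related GC-rich site. Klf proteins are divided by the partners of their variable part. One group recruits the corepressor CtBP, one acts mostly as activators and one recruits the corepressor Sin3A. Sp1 to Sp4 carry glutamine-rich activation domains and are broadly expressed, whereas Sp5 to Sp9 lack those domains and act in the embryo, in limb, tooth, bone and brain. Egr genes are immediate-early genes that are switched on within minutes of a stimulus. H3K27-me3 is laid down by the Polycomb repressive complex and often lies in broad blocks of silent chromatin over developmental regulators and their CpG islands.

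To show how different the start sites of these genes are in sequence, the promoters of 6 of them are given below, from 250 bases before to 50 bases after the RefSeq start on GRCm38, the assembly that mm10 names. They run 5′ to 3′ along the gene, and every CpG dinucleotide is in capitals. Sp3 and Sp9 start 291.5 kb apart on chromosome 2, and Sp4 and Sp8 545.0 kb apart on chromosome 12. Sp9 (chr2:73271676-73271975, plus strand), Sp8 (chr12:118846079-118846378, plus strand) and Klf4 (chr4:55532426-55532725, minus strand) lie under H3K27-me3 regions of the AAV-Cre list. Sp3 (chr2:72980397-72980696, minus strand), Sp4 (chr12:118301391-118301690, minus strand) and Klf15 (chr6:90462326-90462625, plus strand) have none within 15 kb in either list.
Sp9: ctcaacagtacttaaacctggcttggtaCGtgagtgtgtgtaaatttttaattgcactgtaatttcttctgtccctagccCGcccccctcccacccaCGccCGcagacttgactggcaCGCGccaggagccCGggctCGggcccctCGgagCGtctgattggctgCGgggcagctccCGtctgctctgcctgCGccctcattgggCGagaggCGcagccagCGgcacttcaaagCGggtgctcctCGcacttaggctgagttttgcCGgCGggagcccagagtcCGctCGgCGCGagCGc
Sp3: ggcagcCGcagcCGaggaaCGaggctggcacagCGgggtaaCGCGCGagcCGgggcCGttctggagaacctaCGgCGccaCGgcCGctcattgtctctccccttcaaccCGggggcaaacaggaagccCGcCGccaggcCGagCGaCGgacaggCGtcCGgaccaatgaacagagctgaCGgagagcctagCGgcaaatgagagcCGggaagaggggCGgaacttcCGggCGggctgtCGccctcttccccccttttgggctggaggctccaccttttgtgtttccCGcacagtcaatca
Sp8: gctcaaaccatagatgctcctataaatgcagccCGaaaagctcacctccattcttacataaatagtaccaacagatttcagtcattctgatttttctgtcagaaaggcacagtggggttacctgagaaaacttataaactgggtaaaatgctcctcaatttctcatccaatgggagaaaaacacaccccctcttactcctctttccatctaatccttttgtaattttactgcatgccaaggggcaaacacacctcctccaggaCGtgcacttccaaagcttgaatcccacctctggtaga
Sp4: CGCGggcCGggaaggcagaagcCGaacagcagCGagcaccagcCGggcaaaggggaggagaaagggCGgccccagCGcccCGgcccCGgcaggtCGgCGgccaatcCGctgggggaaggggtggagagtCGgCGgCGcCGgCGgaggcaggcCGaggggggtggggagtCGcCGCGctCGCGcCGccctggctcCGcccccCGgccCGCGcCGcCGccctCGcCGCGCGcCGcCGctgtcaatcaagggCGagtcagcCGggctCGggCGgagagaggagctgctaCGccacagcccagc
Klf4: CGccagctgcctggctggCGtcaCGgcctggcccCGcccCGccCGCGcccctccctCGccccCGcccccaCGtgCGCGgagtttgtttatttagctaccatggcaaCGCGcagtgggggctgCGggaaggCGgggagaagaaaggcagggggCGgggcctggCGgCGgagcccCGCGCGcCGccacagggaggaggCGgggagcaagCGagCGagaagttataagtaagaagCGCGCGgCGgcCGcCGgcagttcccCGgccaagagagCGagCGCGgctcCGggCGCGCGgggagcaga
Klf15: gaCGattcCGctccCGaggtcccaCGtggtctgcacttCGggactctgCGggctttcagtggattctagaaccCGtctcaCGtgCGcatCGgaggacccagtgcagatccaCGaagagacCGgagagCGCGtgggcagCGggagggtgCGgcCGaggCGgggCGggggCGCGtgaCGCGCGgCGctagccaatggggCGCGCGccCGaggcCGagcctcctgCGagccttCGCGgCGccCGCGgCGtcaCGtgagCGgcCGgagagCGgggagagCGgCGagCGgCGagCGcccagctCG
The window of Klf15 holds 47 CpG dinucleotides, that of Sp4 holds 42 and that of Klf4 holds 40. Sp3 has 29, Sp9 has 25 and Sp8 has 2. Of these 6, the most CpG-rich promoter was free of the mark, and the most CpG-poor lay inside a region. The 6 were picked as examples, so this contrast describes them alone. The window of Sp8 also leaves out a denser stretch of CpG centred 2800 bp downstream, which is described below.

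Within 1 kb of a start site, 13 of the 30 genes had an H3K27-me3 region in the AAV-Cre list (43.3%, beside 24.0% of all protein-coding genes) and 12 in the AAV-GFP list (40%, beside 16.6%). The 12 genes were Klf4, Klf5, Klf14, Sp5, Sp6, Sp7, Sp8, Sp9, Egr2, Egr3, Egr4 and Wt1, and they had a region in both lists. Sp2 was the 1 gene with a region in AAV-Cre only at this distance (all genes, 7.63%), and 0 genes had one in AAV-GFP only (all genes, 0.288%). The same 12 genes had a region over the gene body in both lists, beside 28.9% of all genes for AAV-Cre and 20.7% for AAV-GFP. The body was covered in one list only at 0 of the 30 genes, where all genes gave 8.87% for AAV-Cre only and 0.723% for AAV-GFP only.

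A start site itself lay inside a region at 12 genes in AAV-Cre (40%, all genes 19.6%) and at 10 in AAV-GFP (33.3%, all genes 11.0%). The 2 genes with a start inside an AAV-Cre region only were Klf4 and Sp5 (all genes, 8.67%), and the reverse was seen at 0 genes (all genes, 0.087%). Counted by start sites, the 30 genes have 53 annotated protein-coding starts, of which 18 lay inside an AAV-Cre region and 13 inside an AAV-GFP region. All of these belonged to the 12 genes, which have 20 starts. The 12 were picked by a region within 1 kb in both lists, so a high share of their starts inside regions follows largely from that choice. Within 15 kb, 17 genes had a region in AAV-Cre (56.7%, all genes 41.6%) and 13 in AAV-GFP (43.3%, all genes 28.0%). Klf6, Klf10, Klf11 and Egr1 had a region within 15 kb in AAV-Cre only, which is 4 of 30 genes or 13.3% and lies near the 14.8% of all genes. At this distance 0 genes were marked in AAV-GFP only, beside 1.21% of all genes.

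If the material was whole liver, it holds several cell types, so a mark on all copies of a gene in few cells and a mark on few copies in all cells cannot be told apart, and the cells that carry the regions at Klf4 or Wt1 were not identified. Of 10 hepatocyte marker genes, such as Alb and Hnf4a, 0 had a region within 15 kb in either list, beside 41.6% and 28.0% of all genes. Marker genes of the other liver cell types carried the mark unequally and are described at the end.

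**Figure D1:**
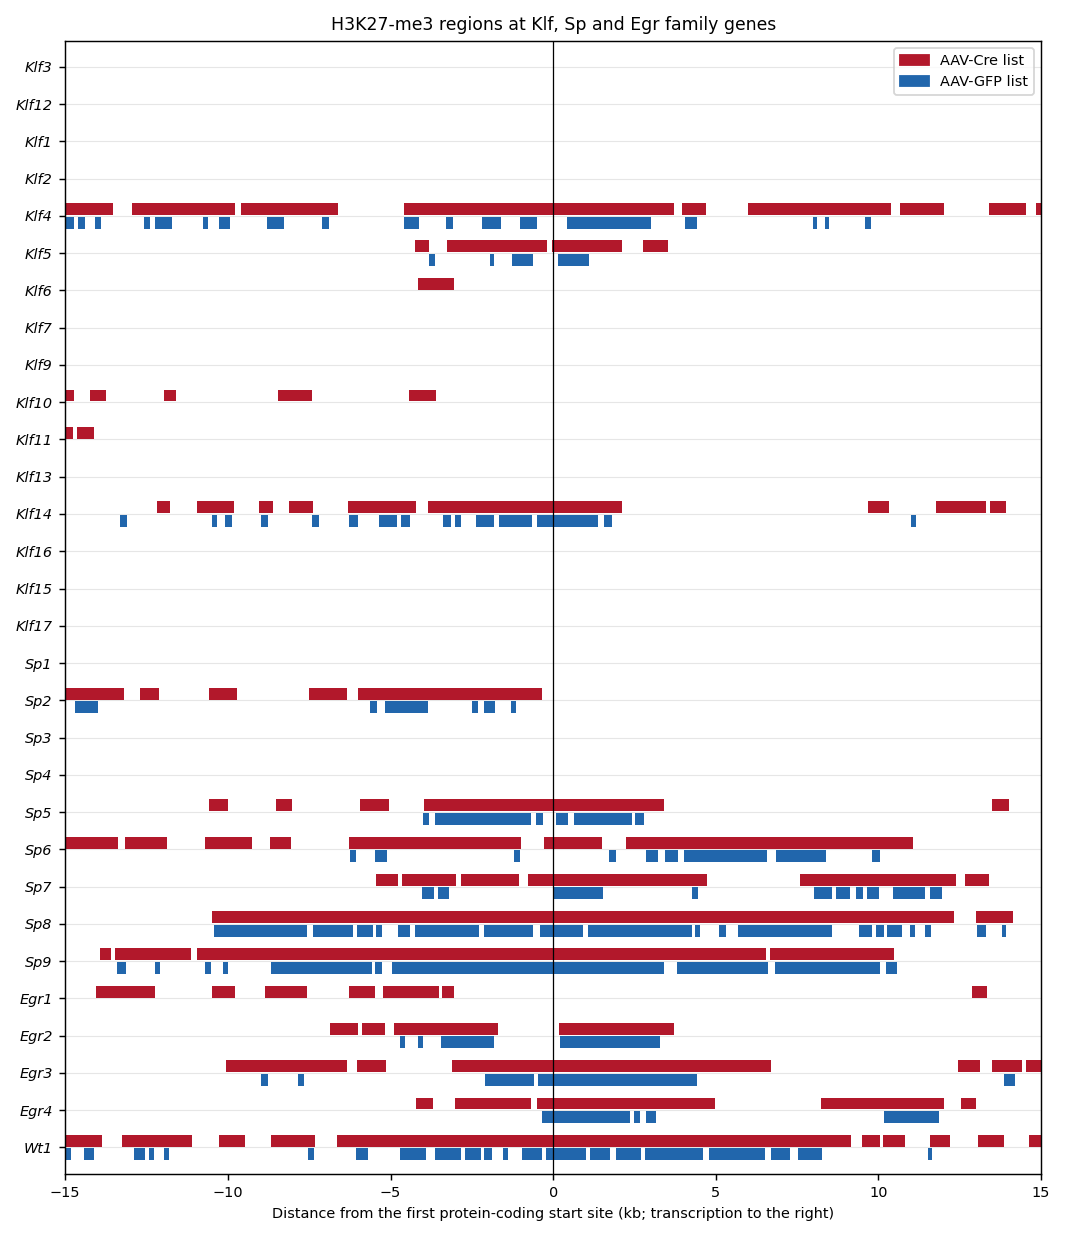
H3K27-me3 regions of the AAV-Cre list (red) and the AAV-GFP list (blue) around 30 genes, by distance in kb from the first protein-coding start site, with transcription running to the right. At 12 genes both lists hold regions over or beside the start, and at 13 genes the 15 kb on either side are empty in both.

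In the AAV-Cre list the genes fell into marked and unmarked ones with few in between. Over the bases within 5 kb of a start site, 12 genes were covered by AAV-Cre regions to between 61.6% and 100%. A coverage of 0% was found at 14 genes, and it was the usual value over all genes (69.9% of them). Only Sp2 (19.1%), Egr1 (16.2%), Klf6 (11.0%) and Klf10 (7.15%) lay between. In the AAV-GFP list 17 genes were at 0% (all genes, 79.4%) and Sp2 was at 7.58%. The 12 genes were spread from 18.8% to 95.6%. The 30 genes had a mean of 35.0% for AAV-Cre regions and of 21.05% for AAV-GFP regions. All genes had means of 9.79% and 3.44%, and a median of 0% in both lists.

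**Figure D2:**
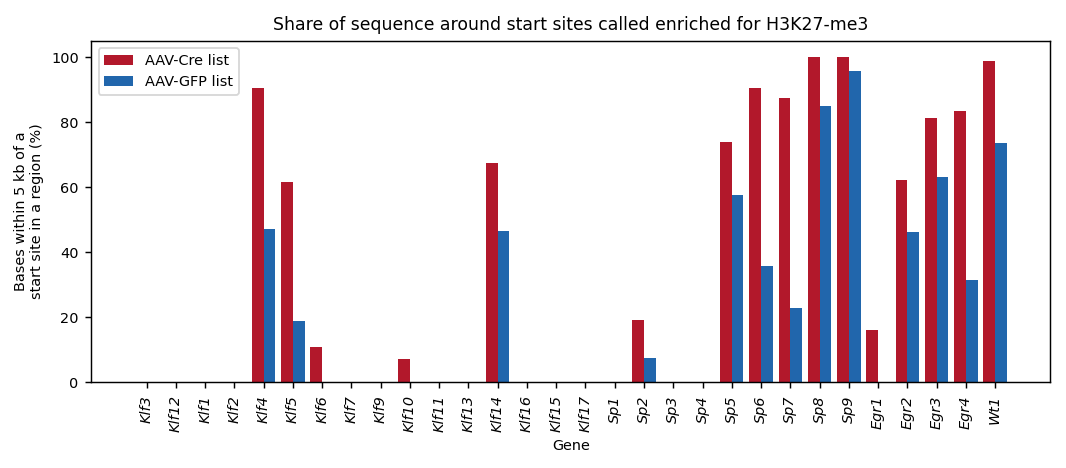
Share of the bases within 5 kb of a gene's start sites that lie in an H3K27-me3 region (%), for the AAV-Cre list (red bars) and the AAV-GFP list (blue bars), with 1 pooled list per virus and hence no error bars. Sp8 and Sp9 reach 100% in AAV-Cre, and each gene with any coverage has more in AAV-Cre than in AAV-GFP.

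Of all genes, 24.0% had a region within 1 kb of a start in AAV-Cre and 16.6% in AAV-GFP. Near these shares, 3 of the 16 Klf genes had such a region in each list. Klf4, one of the factors that turn somatic cells into stem cells and a regulator of epithelial barriers, was the most covered of them within 5 kb of a start. In AAV-Cre, 1 region of 8319 bp (chr4:55528740-55537058) held the start and the upstream sequence printed above, with a 10.9-fold enrichment over the input background, and it stood at percentile 98.7 of the list, ranked from the weakest to the strongest p-value. A further 8 AAV-Cre regions lay within 15 kb, so that 90.5% of the bases within 5 kb were covered. In AAV-GFP the same stretch was broken into smaller pieces, with 18 regions within 15 kb and 47.2% covered within 5 kb. The nearest of these began 431 bp downstream (chr4:55529465-55532035) and 491 bp upstream (chr4:55532957-55533500), which left a gap of 921 bp over the start of Klf4 that the AAV-Cre region spans.

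Klf5, a factor of proliferating epithelium, had its first start in an AAV-Cre region of 2141 bp (chr14:99298655-99300795, 6.00-fold, percentile 96.4). In AAV-GFP a region of 981 bp (chr14:99298823-99299803, 4.08-fold, percentile 94.2) held its other start, and the first start fell in a gap of 744 bp. Coverage within 5 kb was 61.6% and 18.8%. Most of the Klf5 body was free of the mark. Of the whole body, with the regions at the starts included, 17.7% was covered in AAV-Cre and 6.00% in AAV-GFP.

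Klf14, an imprinted gene without introns that recruits Sin3A, was marked at its start in both lists. The AAV-Cre region measured 5952 bp (chr6:30956967-30962918, 7.81-fold, percentile 98.6) and overlapped 6 AAV-GFP regions. The AAV-GFP region over the start measured 1876 bp (chr6:30957707-30959582, 5.67-fold) and stood at percentile 99.2 of its own list. Klf14 was the only marked gene of the 6 that bind Sin3A at this distance.

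Klf6, Klf10 and Klf11 had regions at a distance in the AAV-Cre list and none within 15 kb in AAV-GFP. Klf6, an injury-response factor, had 1 region of 1105 bp whose nearest base lay 3038 bp upstream of its start, beside the closer start of the noncoding gene 1700016G22Rik. Klf10, an early target of TGF-beta, had 5 upstream regions, the nearest 831 bp wide at 3589 bp, and the other 4 lay closer to the noncoding gene Gm35248. Klf11, related to Klf10, had regions of 522 bp and 590 bp at 14129 bp and 14753 bp upstream. The folds of these regions ran from 2.51 to 5.04. The nearest AAV-GFP regions stood 183 kb, 60.6 kb and 76.8 kb from the starts of Klf6, Klf10 and Klf11.

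The other 10 Klf genes had no region within 15 kb in either list. Of all genes, 41.6% had one at this distance in AAV-Cre and 28.0% in AAV-GFP. Klf15, which acts in the fasted liver on amino acid use and gluconeogenesis, lay 145 kb from the nearest AAV-Cre region and 344 kb from the nearest AAV-GFP region. Klf9, a glucocorticoid-induced gene, lay 180 kb and 181 kb away. Klf2, a regulator of endothelial quiescence, lay 234 kb and 316 kb away. The distances for Klf3 and Klf12, the CtBP-binding group, were 176 kb and 193 kb in AAV-Cre, and 642 kb and 466 kb in AAV-GFP. Klf1, the erythroid factor, had its nearest region at 25.9 kb and 27.3 kb, Klf16 at 39.0 kb and 41.0 kb, and Klf17, a germ cell and early embryo gene, at 40.9 kb and 161 kb. Klf7 (19.5 kb) and Klf13 (17.5 kb) stood just outside the 15 kb window in AAV-Cre, and at 393 kb and 115 kb in AAV-GFP. Within 50 kb, Klf1, Klf7, Klf13, Klf16 and Klf17 had a region in AAV-Cre, and Klf1 and Klf16 in AAV-GFP.

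The Sp genes divided by subfamily. Sp5 to Sp9 had a region within 1 kb in 5 of 5 genes in each list, and a start inside a region in 5 of 5 in AAV-Cre and 4 of 5 in AAV-GFP. Sp1 to Sp4 had a region within 1 kb in 1 of 4 genes in AAV-Cre (Sp2) and 0 of 4 in AAV-GFP. Their starts lay inside a region in 0 of 4 genes in each list. Of all genes, 24.0% and 16.6% had a region within 1 kb in AAV-Cre and AAV-GFP, and 19.6% and 11.0% a start inside one. A count of 0 or 1 in 4 genes lies near these shares, whereas 5 of 5 lies above them. Sp5 to Sp9 had a median coverage within 5 kb of 90.6% for AAV-Cre and 57.6% for AAV-GFP regions, and Sp1 to Sp4 of 0% for both.

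Sp8, needed for limb outgrowth and forebrain patterning, lay within 1 AAV-Cre region of 22801 bp (chr12:118835847-118858647, 9.45-fold, percentile 99.5), the widest at any of these genes. The same stretch held 17 AAV-GFP regions, and the one over the start measured 1323 bp (chr12:118845909-118847231, 3.75-fold, percentile 93.5). Sp8 was covered to 100% and 85.03% within 5 kb, which placed it at percentiles 99.8 and 99.9 among all genes.

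Sp9, a factor of limb buds and of interneurons, lay in an AAV-Cre region of 17484 bp (chr2:73260989-73278472, 10.9-fold, percentile 99.7). A second region of 3812 bp followed it (chr2:73278587-73282398, 13.9-fold). In AAV-GFP the region over the Sp9 start measured 8351 bp (chr2:73266978-73275328, 5.80-fold, percentile 99.6), the widest of that list at these genes. Within 5 kb, AAV-Cre regions covered 100% and AAV-GFP regions 95.6%, so Sp9 differed least between the lists among the 12 marked genes by this share.

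Sp5, a Wnt target of the early embryo, lay in an AAV-Cre region of 7397 bp (chr2:70470942-70478338, 14.4-fold, percentile 99.8) that covered its whole body. In AAV-GFP 6 regions fell in that stretch and left a gap of 401 bp over the start. On the upstream side the gap was bounded by a region of 218 bp (chr2:70474380-70474597). The region 76 bp downstream of the Sp5 start (chr2:70474999-70475375) was a weak call at percentile 13.4 of the AAV-GFP list, whereas the next one (chr2:70475554-70477335, 6.14-fold) stood at percentile 99.3.

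Sp6, a factor of tooth and skin, has 2 starts, and both lay in AAV-Cre regions, of 1800 bp (chr11:97013109-97014908, 4.65-fold) and 8811 bp (chr11:97015640-97024450, 8.32-fold). In AAV-GFP only the inner start lay in a region, of 2556 bp (chr11:97017408-97019963, 5.75-fold, percentile 98.8). The outer start of Sp6 lay in a gap of 2731 bp. Sp7, or osterix, the factor of bone-forming cells, lay in an AAV-Cre region of 5504 bp (chr15:102362229-102367732, 7.87-fold, percentile 96.2). Of its 2 starts, 1 lay in an AAV-GFP region of 1486 bp (chr15:102365446-102366931, 2.54-fold), at percentile 76.5 the lowest-ranked best region within 1 kb among the 12 genes in that list. A stronger AAV-Cre region of 4774 bp (10.7-fold) at the end of the Sp7 body lay closer to the start of Aaas.

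Each of Sp1 to Sp4 is transcribed away from one of Sp6 to Sp9 on the same chromosome. In each pair, the regions between the starts ended before the start of the gene from Sp1 to Sp4. Sp1 and Sp7 start 39.4 kb apart, with 12.3% of the sequence between the starts in AAV-Cre regions and 1.83% in AAV-GFP regions. The AAV-Cre regions on the Sp7 side ended 33.9 kb before the start of Sp1, a factor used in nearly all cells, and the AAV-GFP regions ended 35.3 kb before it. Sp3 and Sp9 start 291.5 kb apart, with 5.84% of the sequence between them in AAV-Cre regions and 3.09% in AAV-GFP regions. Sp3, widely expressed like Sp1, was 57.4 kb from the nearest AAV-Cre region and 278 kb from the nearest AAV-GFP region. Sp4 and Sp8 start 545.0 kb apart, with 3.37% of the sequence between them in AAV-Cre regions and 1.93% in AAV-GFP regions. Sp4, best known from neurons, was 102.6 kb from the nearest AAV-Cre region, which lay on the side away from Sp8. The nearest AAV-GFP region, on the Sp8 side, was 155 kb away. On that side the stretch without regions ended at nearly the same place in both lists, at base 118456274 in AAV-Cre and 118456355 in AAV-GFP.

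Sp2 and Sp6 are the closest of these pairs, 30.4 kb apart, and the sequence between them was the most covered, with 68.3% in AAV-Cre regions and 12.0% in AAV-GFP regions. The nearest AAV-Cre region to Sp2 (chr11:96983308-96988950, 5643 bp, 8.00-fold, percentile 96.4) stopped 349 bp upstream of its start. The AAV-GFP list had 5 regions in that stretch, the nearest 1144 bp upstream. None of the 3 starts of Sp2 and no base of its body lay in a region in either list, and the next region on the other side of the Sp2 start left a gap of 53007 bp in AAV-Cre and 53942 bp in AAV-GFP. Sp2 was therefore counted as marked within 1 kb in AAV-Cre by the edge of this upstream region alone, and the regions between Sp2 and Sp6 were separate, with gaps between them. Sp1, Sp7, Sp2, Sp6, Sp3, Sp9 and Sp5 lie on chromosomes with a Hox cluster, at 515 kb and 554 kb from Hoxc13 for Sp1 and Sp7, 617 kb and 648 kb from Hoxb1 for Sp2 and Sp6, and 1688 kb, 1396 kb and 4193 kb from Hoxd13 for Sp3, Sp9 and Sp5.

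**Figure D3:**
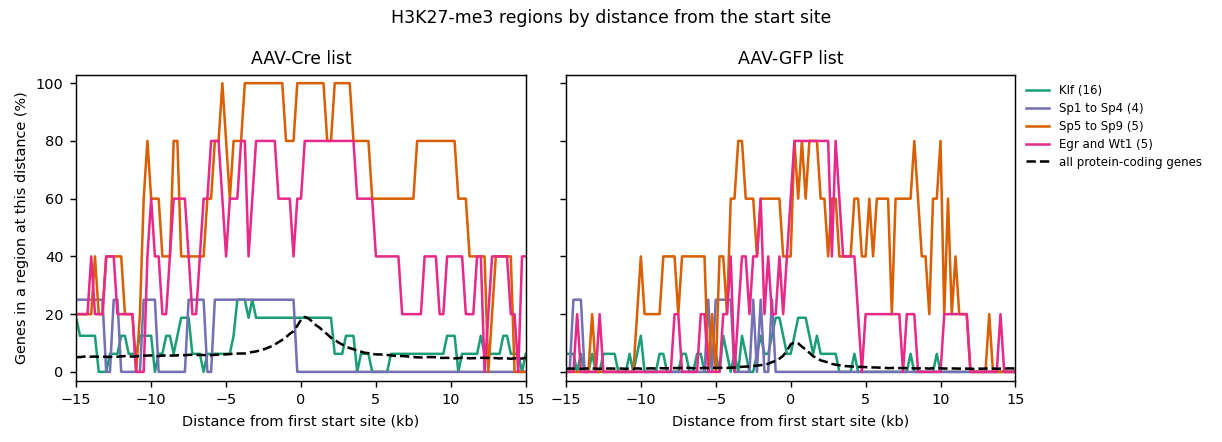
Share of genes (%) that lie in an H3K27-me3 region at each distance in kb from the first protein-coding start site, in the AAV-Cre list (left) and the AAV-GFP list (right), for 16 Klf genes, Sp1 to Sp4, Sp5 to Sp9, the 5 Egr and Wt1 genes, and all protein-coding genes. At the start, 100% of Sp5 to Sp9 lay in an AAV-Cre region and 40% in an AAV-GFP region, beside 18.1% and 9.56% of all genes.

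Of the 5 Egr and Wt1 genes, 4 had a region within 1 kb in each list, beside 24.0% and 16.6% of all genes. Egr3, known from muscle spindles and immune cells, lay in an AAV-Cre region of 9802 bp (chr14:70074093-70083894, 14.7-fold, percentile 99.8) that covered 100% of its body. The AAV-GFP region over the start of Egr3 measured 4866 bp (chr14:70076750-70081615, 4.88-fold, percentile 98.3). Egr4, a neuronal member, lay in an AAV-Cre region of 5467 bp (chr6:85508619-85514085, 10.5-fold, percentile 99.6) and in an AAV-GFP region of 2686 bp (chr6:85511236-85513921, 8.98-fold, percentile 99.9). The body of Egr4 was covered to 100% and 95.3%. Regions farther downstream of Egr3 and Egr4 lay closer to the starts of Bin3 and Fbxo41.

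Egr2, which patterns the hindbrain and drives myelination by Schwann cells, showed the same gap in both lists. Its first starts, at 67537869 and 67537870 of chromosome 10, lay outside the regions, in a gap of 1876 bp in the AAV-Cre list and 2028 bp in the AAV-GFP list. The AAV-Cre regions on either side ranked at percentile 99.9 upstream (chr10:67532965-67536163, 16.4-fold) and at percentile 99.5 downstream (chr10:67538040-67541584, 12.8-fold). The AAV-GFP regions on either side were chr10:67534409-67536064 (8.08-fold, percentile 99.8) and chr10:67538093-67541138 (5.07-fold, percentile 98.1). A start of Egr2 farther inside the gene, at 67538683, lay in the downstream region of each list.

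Wt1, a factor of kidney, gonad and mesothelium, lay in an AAV-Cre region of 15815 bp (chr2:105119878-105135692, 5.09-fold, percentile 95.2) that also holds the start of the noncoding gene Wt1os. The stretch overlapped 14 AAV-GFP regions, and the one over the first start measured 1248 bp (chr2:105126303-105127550, 4.68-fold, percentile 96.1). Coverage within 5 kb was 98.7% and 73.6%, but 33.8% and 16.2% over the body, so the mark lay on the first part of the gene.

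Egr1, the member induced most widely by growth factors and stress, differed from the others of its family. No region lay within 3 kb of its starts in either list, and none touched its body. In AAV-Cre 8 regions lay within 15 kb, 6 of them upstream at 3054 to 12253 bp and 2 downstream at 11485 bp and 14551 bp, and they left 15922 bp around the starts free. The 2 farthest upstream lay closer to the start of Reep2. Folds at Egr1 were 2.45 to 4.12, and the highest-ranked region stood at percentile 82.6 of the list. The nearest AAV-GFP region was 23.2 kb away.

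Over the gene bodies of the 12 genes, coverage ranged widely. Egr3 (5412 bp), Egr4 (2469 bp), Sp5 (2807 bp) and Sp8 (6248 bp) had 100% of the body in AAV-Cre regions, and 81.5%, 95.3%, 87.3% and 80.9% in AAV-GFP regions. Sp6 had 91.1% and 46.8%, Klf4 83.7% and 54.9%, Sp9 81.1% and 76.4%, and Sp7 73.0% and 30.7%. Klf14 had 69.1% and 53.1% and Egr2 63.1% and 54.2%. The longest marked genes, Wt1 (47088 bp) and Klf5 (16346 bp), had the lowest shares, with most of the covered sequence in the first part of the gene.

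The AAV-GFP regions at these genes lay almost wholly inside AAV-Cre regions. Within 15 kb of the 30 genes, AAV-Cre regions covered 224.7 kb and AAV-GFP regions 102.9 kb, and 98.8% of the AAV-GFP bases lay in AAV-Cre regions, while 45.2% of the AAV-Cre bases lay in AAV-GFP regions. Near any protein-coding start, 96.6% of AAV-GFP bases and 26.8% of AAV-Cre bases, summed over regions within 15 kb, lay in the other list. Of 132 AAV-GFP regions near the 30 genes, 129 (97.7%) overlapped an AAV-Cre region, beside 92.4% of the 19535 near any start. Of 93 AAV-Cre regions, 41 (44.1%) overlapped an AAV-GFP region, beside 31.7% of 25041. The ratio of covered bases between the lists was 1.32 within 1 kb, 1.69 within 5 kb and 2.18 within 15 kb. Over all genes, the ratio of the mean coverage was 2.14, 2.85 and 3.45 at the same distances, and it was 1.30, 1.66 and 2.16 for the 30 genes. Coverage cannot exceed 100%, which bounds the ratio where AAV-GFP coverage is already high. As a difference of means, AAV-Cre exceeded AAV-GFP by 8.72, 13.98 and 12.73 percentage points at the 30 genes and by 8.30, 6.35 and 4.80 points over all genes. Within 1 kb, 33.6% of the bases at the 30 genes were covered in AAV-Cre and 25.4% in AAV-GFP. At the 12 marked genes, which were picked by a region at this distance, the shares were 91.9% and 71.2%.

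**Figure D4:**
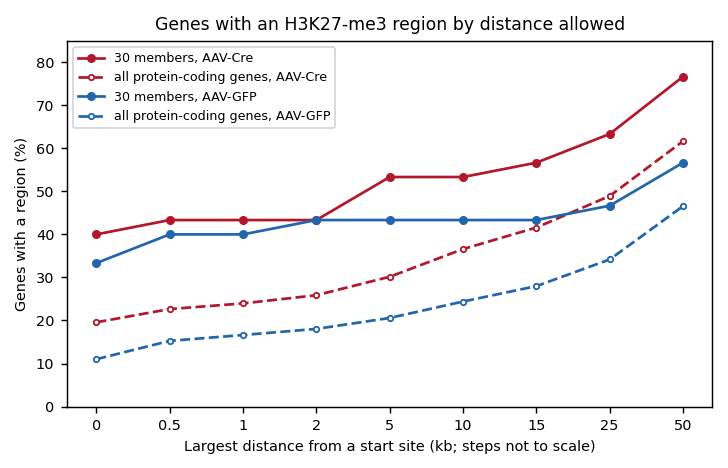
Share of genes (%) with an H3K27-me3 region within a given distance of a start site, from 0 kb (a start inside a region) to 50 kb, for the 30 genes (filled points, solid lines) and for all protein-coding genes (open points, dashed lines) in AAV-Cre (red) and AAV-GFP (blue). From 0 to 15 kb the 30 genes rise from 40% to 56.7% in AAV-Cre and from 33.3% to 43.3% in AAV-GFP, and all genes from 19.6% to 41.6% and from 11.0% to 28.0%.

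The regions at these genes were wide. The median width of the 17 AAV-Cre regions within 1 kb of their starts was 5643 bp. Of these, 12 (70.6%) measured at least 5 kb, beside 14.7% of the 6449 AAV-Cre regions within 1 kb of any protein-coding start. For the 24 AAV-GFP regions the median width was 1508 bp, beside 449 bp for all AAV-GFP regions near a start. The narrower AAV-GFP regions also lay on more CpG-rich sequence. Their median was 5.16 CpG per 100 bases, beside 3.23 for the AAV-Cre regions at these genes. The regions within 1 kb of any protein-coding start also differed, with medians of 4.10 for AAV-GFP and 2.74 for AAV-Cre. The AAV-GFP region over the Egr4 start had 9.94 CpG per 100 bases and the AAV-Cre region 5.43. At Klf5 these values were 10.3 and 6.96, at Klf14 they were 8.64 and 3.34, and at the first start of Wt1 they were 9.30 and 3.14. Differences were smaller at Sp9 (4.99 and 3.48), at the inner start of Egr2 (4.20 and 3.84) and at Sp7 (1.615 and 1.363).

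CpG density at the start did not divide marked from unmarked genes. Within 500 bp of the gene start, the 12 genes marked in both lists had a median of 6.59 CpG per 100 bases, with a range of 0.999 to 11.5, and the other 18 had a median of 7.64, with a range of 0.4995 to 12.5. All protein-coding genes had a median of 4.10. All genes were ranked by CpG density and split into 5 classes of equal size. In the class with the highest density, 24.2% of 4370 genes had an AAV-Cre region within 1 kb. This class holds 14 of the 30 genes, and the 5 marked ones were Klf4, Klf5, Klf14, Egr3 and Egr4. The 9 others were Klf3, Klf9, Klf10, Klf11, Klf13, Klf15, Klf16, Sp3 and Sp4. Sp6, Sp7 and Sp2 had only 0.999 to 1.80 CpG per 100 bases and were marked within 1 kb in AAV-Cre, in a class where 27.2% of all genes were.

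The start is not always the densest point. The densest 1001 bases with a centre within 5 kb of the first start held 12.0 CpG per 100 bases at Sp8, centred 2800 bp downstream, and 12.5 at Sp9, centred 1900 bp downstream. At Sp5 they held 10.4, centred 1800 bp downstream. Sp7 had no such stretch, since its densest window held 2.80 CpG per 100 bases beside a median of 5.49 over all genes, and yet 87.4% of the bases within 5 kb of its starts lay in AAV-Cre regions. Klf17, with 2.30 in its densest window, was unmarked. The median of the densest window was 10.5 for the 12 marked genes and 11.3 for the other 18.

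**Figure D5:**
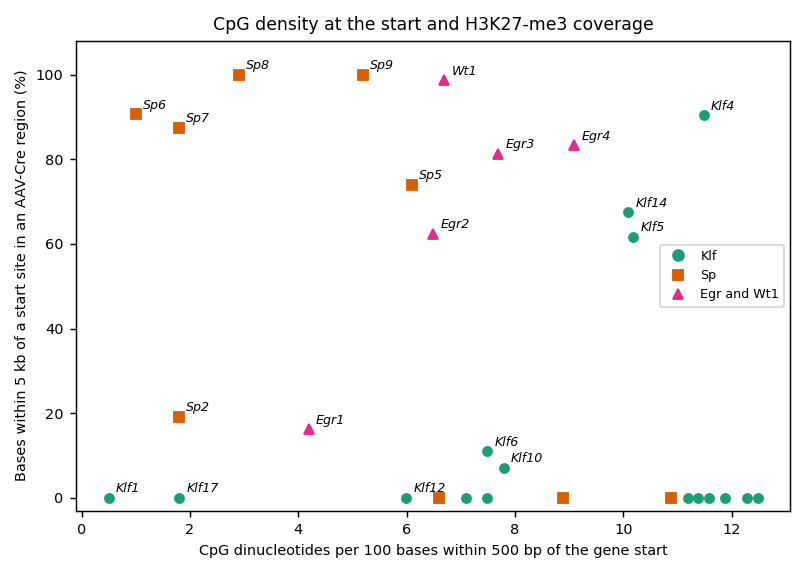
CpG dinucleotides per 100 bases within 500 bp of the gene start, against the share of bases within 5 kb of a start site in an AAV-Cre region (%), with 1 point per gene (circles, Klf; squares, Sp; triangles, Egr and Wt1). Genes at 0% run from 0.4995 to 12.5 CpG per 100 bases, and genes above 60% from 0.999 to 11.5.

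RefSeq promoters of 300 bases on GRCm38 were matched to 21 of the 30 genes. They were searched on both strands for letters that these families are known to bind. The GC box, GGGCGG, was found in 13 of 21 windows (61.9%), beside 48.4% of 16515 promoters. CACCC was found in 17 (81.0%), beside 59.1%. The Egr site GCGTGGGCG was found in 0 of 21, beside 0.884%. The Egr site ends in GGGCG and so can overlap a GC box. The 21 windows held a median of 25 CpG dinucleotides, beside 14 over all 16515 promoters, and GGGCGG itself holds a CpG. Whether the GC box share differs at equal CpG content was not tested. A match describes the letters alone.

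To place these genes among their partners and the genes induced beside them, 2 further lists were examined. Of 30 cofactors and upstream regulators, such as CtBP, Sin3 and histone deacetylase genes, the Nab corepressors of Egr proteins, Smad and Mef2 genes, 3 had a region within 1 kb in AAV-Cre and 2 in AAV-GFP. These are 10% and 6.67% of the list, beside the 24.0% and 16.6% of all genes. Ctbp2, a corepressor partner of Klf3 and Klf12, was marked in both lists, with 57.2% and 26.9% of the bases within 5 kb covered. Within 1 kb, Mapk7 and Fhl2 were marked in AAV-Cre only and Mef2c in AAV-GFP only. Within 15 kb the counts were 10 and 3, or 33.3% and 10% of the list, beside 41.6% and 28.0% of all genes. Of the 30, 7 had a region within 15 kb in AAV-Cre only (all genes, 14.8%) and 0 in AAV-GFP only (all genes, 1.21%).

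Of 20 other immediate-early genes, 9 had a region within 1 kb in AAV-Cre (45%, all genes 24.0%) and 8 in AAV-GFP (40%, all genes 16.6%). Fos, Fosl1, Ier3, Atf3, Nr4a2, Nr4a3, Dusp5 and Ccn2 were marked in both lists and Nr4a1 in AAV-Cre only. Within 15 kb the counts were 13 and 10, or 65% and 50% of the list, beside 41.6% and 28.0% of all genes. The genes with no region within 15 kb in either list were Jun, Junb, Jund, Ier2, Myc, Maff and Ccn1. Egr1 stood between these, with regions at a distance in AAV-Cre, whereas Egr2, Egr3 and Egr4 each had a start inside a region in both lists. Fos had no start inside a region, with the nearest region at 365 bp in AAV-Cre and 924 bp in AAV-GFP.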

How the data were processed

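H3K27-me3 ChIP-seq of liver from AAV-Cre and AAV-GFP mice was used, with groups taken from the sample labels. The authors processed reads with the AQUAS pipeline and a pooled input control, mapped them to mm10 with BWA 0.7.13, filtered them with SAMtools 1.2 and Picard 1.126 and called peaks with MACS, keeping peaks that overlapped across replicates. Each deposited list gives, per peak, a fold enrichment (a ratio over background), the −log10 of the p-value and q-value, and a display score, which was not used here. Peaks were called as narrow, which splits broad domains. The 30 genes, the lists of cofactors, immediate-early genes and markers of hepatocytes and of endothelial, Kupffer, stellate and bile duct cells, and the calls were chosen with earlier results of these data known. All 30 genes are named, with regions in full where one lay within 1 kb of a start.

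Start sites were those of basic protein-coding transcripts of GENCODE M21, and an overlap of 1 bp counted. Percentiles rank −log10 p within a list, and folds were not compared between lists. With 1 list per group, no test was run and no error can be given. Sequences came from RefSeq (GRCm38). A search of the proteins for zinc fingers was not done. Alternatives were q-values of 0.05 and 0.01, the same number of 34586 peaks, at least 300 bp, joining within 1 kb, an overlap of 100 bp, the start of the gene record and windows of 0.5, 2, 5 and 50 kb. Python 3.11.15, numpy 2.4.6 and pandas 2.3.3 were used, and the interval functions were tested on simulated data.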

Additional observations from a re-analysis of the deposited data

How the results depend on the processing

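Each list pools both mice, so leaving out a mouse could not be run, and the depth is unknown. No paired analysis was possible because the lists hold no value per replicate. The count of genes marked within 1 kb in AAV-Cre only was 1 (Sp2). It became 2 with the start of the gene record, which adds Sp6, and 0 with a window of 2 kb, which removes Sp2 since an AAV-GFP region then counts. The share of bases within 5 kb of the starts covered by AAV-Cre regions was 32.54% and became 33.98% with peaks joined within 1 kb. For AAV-GFP it was 19.21%, and became 17.76% at a q-value of 0.05, 17.93% with peaks of at least 300 bp and 23.37% with joined peaks. The count within 15 kb in AAV-Cre only was 4 and became 3 with a window of 5 kb, which removes Klf11. With a window of 50 kb it became 6, with Klf7, Klf13 and Klf17 added and Egr1 lost. The other counts, within 1 kb, within 15 kb and over the body, stayed within 1.5 times under each alternative. The alternative of at least 300 bp cannot change the AAV-Cre list, whose smallest width is 300 bp.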

Other observations

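The marker genes of the other liver cell types carried the mark unequally. Of all protein-coding genes, 24.0% had a region within 1 kb in AAV-Cre and 16.6% in AAV-GFP, and 41.6% and 28.0% within 15 kb. Of 8 stellate cell genes, 6 (75%) had a region within 1 kb of a start in AAV-Cre (Lrat, Des, Pdgfrb, Reln, Hand2 and Col1a1) and 7 (87.5%) in AAV-GFP, where Dcn was added. Of 6 bile duct genes, 5 (83.3%) were marked in AAV-Cre and 3 (50%) in AAV-GFP, with Krt19, Epcam and Sox9 in both lists. Of 8 endothelial genes, 4 (50%) were marked in AAV-Cre and 3 (37.5%) in AAV-GFP, with Pecam1, Kdr and Erg in both. Of 7 Kupffer cell genes, 1 (Adgre1, 14.3%) was marked in AAV-Cre and 0 in AAV-GFP. Within 15 kb the Kupffer counts were 3 (42.9%) and 0. The part that the mix of cell types has in the marks at the Klf, Sp and Egr genes was not tested.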
